A study of Mus musculus with 18 samples.

Results

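The genes described here are 41 genes of motile cilia, the beating hairs of ciliated airway cells, measured in whole mouse lung. They were chosen by name from a list of ciliated cell and axoneme genes, by a rule that uses no measured value, though earlier results of these data were known when the list was made. Each gene was read from the probe set with the highest mean among those annotated to that gene alone. A single-gene probe set was present for 39 of the 41 genes, out of 18193 genes named on the array. Cfap44 and Sntn had none and have no value here. All mice were 16-week-old males sensitized to ovalbumin with 3 weekly intraperitoneal injections of 100 µg adsorbed to alum, so that the controls carried the sensitization too. From 7 days after the last injection they breathed an aerosol for 30 min on 3 days, which was PBS in the control mice and 1% ovalbumin in the challenged mice. The remaining group of each strain breathed 1% ovalbumin and was injected intraperitoneally with 100 µg of resiquimod (S-28463, R-848), a synthetic imidazoquinoline that activates Toll-like receptor 7, 24 h before each of the 3 challenges. Each group held 3 mice of the inbred strain A/J or 3 of C57BL/6, with 1 array per mouse and 18 arrays in all. No group received resiquimod without ovalbumin, so the effect of resiquimod on unchallenged lungs was not measured.

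A motile cilium is built on a ring of doublet microtubules around a central pair. Dynein arms on each doublet slide it along its neighbour, radial spokes and the central pair time the dyneins, and nexin links turn sliding into bending. The transcription factor Foxj1 switches on most of these genes in multiciliated cells, together with factors of the RFX family. In the lung such cells line the conducting airways, where their beat clears mucus, and they are a small part of the cells of a whole lung. In bulk lung RNA, fewer ciliated cells and less of a transcript per ciliated cell cannot be told apart.

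All values are log2 expression values normalised across arrays, so a difference of 1 is a doubling. A gene was called higher or lower when its limma p-value, adjusted by the Benjamini-Hochberg method over 45037 probe sets, was under 0.05. The mean of each of the 39 genes over the arrays lay above the 25th percentile of all values (3.33). Transcripts of squamous epithelium, which is not lung tissue, were present on 8 of the 18 arrays, with at least 1 in every group: the mean over 15 squamous genes was 6.39 or more there and 4.09 or less on the other 10. Skeletal muscle genes had a mean of 7.60 or more on the same 8 arrays and 7.49 on A/J PBS replicate 3, and 5.04 or less elsewhere. The C57BL/6 ovalbumin replicate 2 array stood apart in RNA quality, with a Gapdh 3′ minus 5′ difference of 0.56 against -0.06 to 0.10 on the other arrays. Labels name the 3 mice of a group as biological replicates.

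**Figure D1:**
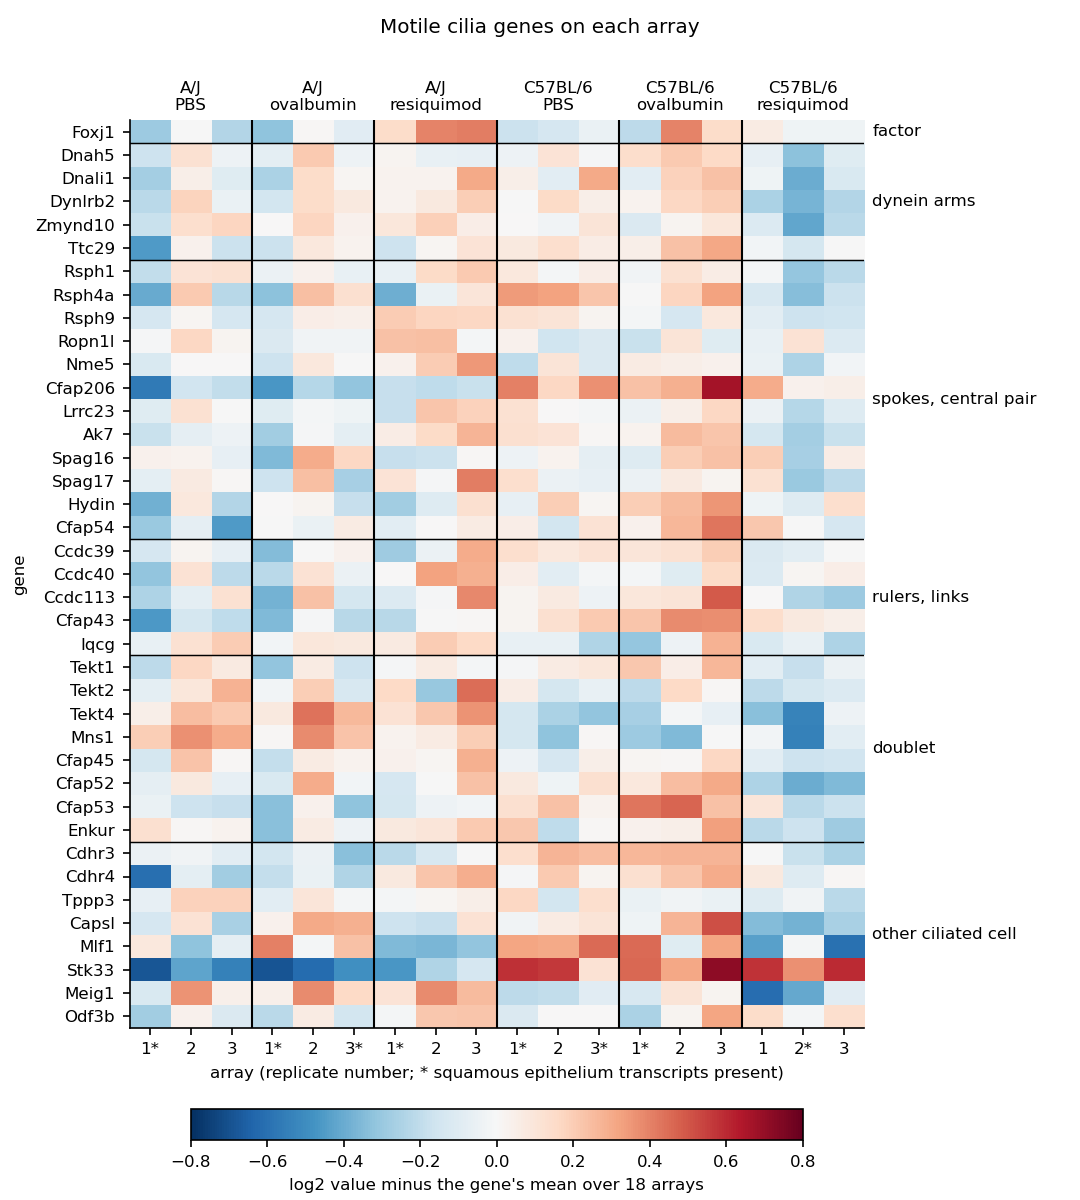
Log2 value of each of 39 motile cilia genes on each of 18 arrays, minus that gene's mean over the arrays; rows are ordered by role, columns by group, and an asterisk marks the 8 arrays with squamous epithelium transcripts. Whole columns tend to be red or blue together, the C57BL/6 resiquimod columns are mostly blue, and Stk33, Cfap206 and Tekt4 split by strain.

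Ovalbumin challenge alone moved none of the cilia genes past the test. In A/J lungs 0 of 39 were called against PBS, where 3.20% of all named genes were called higher and 1.18% lower. In C57BL/6 lungs 0 of 39 were called too, against 1.44% higher and 0.154% lower for all named genes. At an unadjusted p under 0.05, limma gave 2 genes in A/J (5.13%) and 1 in C57BL/6 (2.56%). Over all named genes the shares were 17.8% and 11.9%. The median difference over the 39 genes was 0.02 in A/J, with 21 above 0 and 18 below. It was 0.08 in C57BL/6, with 33 above 0 and 6 below, and over all named genes the medians were -0.00 and 0.00. The largest differences in A/J were 0.31 for Mlf1 and 0.30 for Capsl upward, and -0.16 for Enkur and -0.15 for Tekt1 downward. In C57BL/6 they were 0.25 for Cfap53 and 0.23 for Cfap54 upward, and -0.13 for Rsph4a and -0.13 for Mlf1 downward. The 95% intervals had a median half-width of 0.24, which limits what 3 mice per group could show. Goblet cell genes, as a contrast in the same airways, had a mean value between 5.19 and 5.29 in the C57BL/6 PBS lungs and between 7.28 and 7.45 in the ovalbumin lungs.

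In C57BL/6 lungs, 8 of the 39 cilia genes were lower with resiquimod before ovalbumin than with ovalbumin alone, and 0 were higher; 4.60% of all named genes were called lower and 5.80% higher. The median difference was -0.23, with 35 genes below 0 and 4 above, while over all 18193 genes the median was -0.02. The 8 were Mlf1, Capsl, Cfap52, Cfap53, Dynlrb2, Cdhr3, Ak7 and Dnah5, and their levels after resiquimod were 0.672 to 0.794 times those after ovalbumin alone.

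Among dynein genes, 2 of 5 fell and all 5 estimates lay below 0. Dynlrb2, a dynein light chain of the roadblock family, read 9.08, 9.22 and 9.25 after ovalbumin and 8.80, 8.68 and 8.82 after resiquimod in C57BL/6. In the C57BL/6 PBS lungs it read 9.05, 9.21 and 9.10, and in A/J 8.84, 9.23 and 9.00 with PBS, 8.91, 9.20 and 9.13 with ovalbumin and 9.08, 9.13 and 9.25 with resiquimod. All 3 C57BL/6 resiquimod lungs were below every other lung, and the difference from ovalbumin was -0.41 ± 0.10 (SE, limma adjusted p = 0.0135). Dnah5, an outer arm dynein heavy chain whose loss causes primary ciliary dyskinesia, went from 4.89, 4.96 and 4.91 to 4.68, 4.42 and 4.65, a difference of -0.33 ± 0.09 (limma adjusted p = 0.0345), with no overlap between the groups. The other 3, the inner arm light chain Dnali1, the assembly factor Zmynd10 and Ttc29, differed by -0.30, -0.24 and -0.25 and did not pass the test.

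Of 12 radial spoke and central pair genes, 1 fell, 11 estimates were below 0 and the median was -0.20. That gene was Ak7, an adenylate kinase of the axoneme. It read 7.48, 7.70 and 7.67 after ovalbumin, 7.31, 7.18 and 7.27 after resiquimod and 7.58, 7.56 and 7.46 with PBS in C57BL/6. The resiquimod lungs lay below all the others of their strain, and the difference from ovalbumin was -0.36 ± 0.08 (limma adjusted p = 0.0133). Rsph4a, a spoke head protein, differed by -0.37 ± 0.16 and did not pass (limma adjusted p = 0.197). The 5 genes of rulers, tethers and nexin links all lay below 0, between -0.40 for Ccdc113 and -0.03 for Ccdc40, and 0 of them were called.

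Among the 8 genes for proteins inside the doublet microtubules, 2 fell, and the median was -0.24. Cfap52 read 6.39, 6.28 and 6.44 with PBS, 6.40, 6.56 and 6.62 after ovalbumin and 6.07, 5.92 and 5.96 after resiquimod in C57BL/6. In A/J it read 6.24, 6.39 and 6.25 with PBS, 6.19, 6.61 and 6.29 with ovalbumin, and 6.18, 6.31 and 6.55 with resiquimod. The 3 C57BL/6 resiquimod lungs were the lowest of all 18, at -0.54 ± 0.11 from ovalbumin (limma adjusted p = 0.0044). A second Cfap52 probe set with a lower mean (4.53) differed by -0.00 ± 0.23 and was not called, so the 2 probe sets disagreed. Cfap53 read 5.84, 5.95 and 5.74 with PBS, 6.14, 6.18 and 5.95 with ovalbumin, and 5.81, 5.50 and 5.54 with resiquimod in C57BL/6. Its A/J values were 5.66, 5.55 and 5.53 with PBS, 5.38, 5.75 and 5.39 with ovalbumin, and 5.57, 5.67 and 5.69 with resiquimod. The C57BL/6 resiquimod and ovalbumin lungs did not overlap for Cfap53, and the difference was -0.47 ± 0.11 (limma adjusted p = 0.00965). Mns1 and the tektins Tekt1, Tekt2 and Tekt4, filaments of the doublet wall, had estimates from -0.29 for Tekt1 to 0.00 for Mns1 and did not pass.

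Of the 8 remaining ciliated cell genes 3 fell. Cdhr3, a cadherin of the apical surface that serves as a rhinovirus C receptor in people, read 6.92, 7.06 and 7.03 with PBS, 7.05, 7.06 and 7.06 after ovalbumin and 6.78, 6.61 and 6.53 after resiquimod in C57BL/6. In A/J it read 6.74, 6.76 and 6.70 with PBS, 6.64, 6.74 and 6.45 with ovalbumin, and 6.57, 6.66 and 6.78 with resiquimod. The C57BL/6 resiquimod lungs lay below the other C57BL/6 lungs and within the range of the A/J lungs. The difference was -0.41 ± 0.08 from ovalbumin (limma adjusted p = 0.00446). Capsl, a calcium-binding protein of the calcyphosine family, read 5.94, 6.03 and 6.07 with PBS, 5.93, 6.24 and 6.48 with ovalbumin, and 5.62, 5.59 and 5.71 with resiquimod in the C57BL/6 groups and 5.83, 6.08 and 5.71 with PBS, 6.00, 6.27 and 6.25 with ovalbumin, and 5.80, 5.78 and 6.08 with resiquimod in the A/J groups. Its C57BL/6 resiquimod lungs lay below both other groups of the strain, by -0.57 ± 0.13 from ovalbumin (limma adjusted p = 0.00922).

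Mlf1, myeloid leukemia factor 1, was the gene of the list whose values ran against those of the others within groups. It read 6.51, 6.50 and 6.65 with PBS, 6.65, 6.10 and 6.51 with ovalbumin, and 5.76, 6.18 and 5.60 with resiquimod in C57BL/6, and 6.28, 5.87 and 6.12 with PBS, 6.60, 6.18 and 6.43 with ovalbumin, and 5.84, 5.83 and 5.88 with resiquimod in A/J. The resiquimod lungs were below the ovalbumin lungs in A/J, and in C57BL/6 replicate 2 overlapped them. The difference from ovalbumin was -0.57 ± 0.15 in C57BL/6 (limma adjusted p = 0.0302) and -0.55 ± 0.15 in A/J (limma adjusted p = 0.0393). Over the 18 arrays, after group means were subtracted, Mlf1 had a correlation of 0.80 with the mean of 11 skeletal muscle genes, where 37 of the 39 cilia genes had one below 0. The part of muscle RNA in the Mlf1 differences was not tested.

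Of these 8 calls fewer were made with fewer arrays of the 2 groups. The count was 3 without ovalbumin replicate 3, 5 without resiquimod replicate 2 and 6 without ovalbumin replicate 2, the array with the large Gapdh difference. Without the 8 arrays with squamous transcripts, which left 2 lungs in each of these groups, it was 1 (Cfap52), and the median was -0.25 with 37 of 39 genes below 0.

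**Figure D2:**
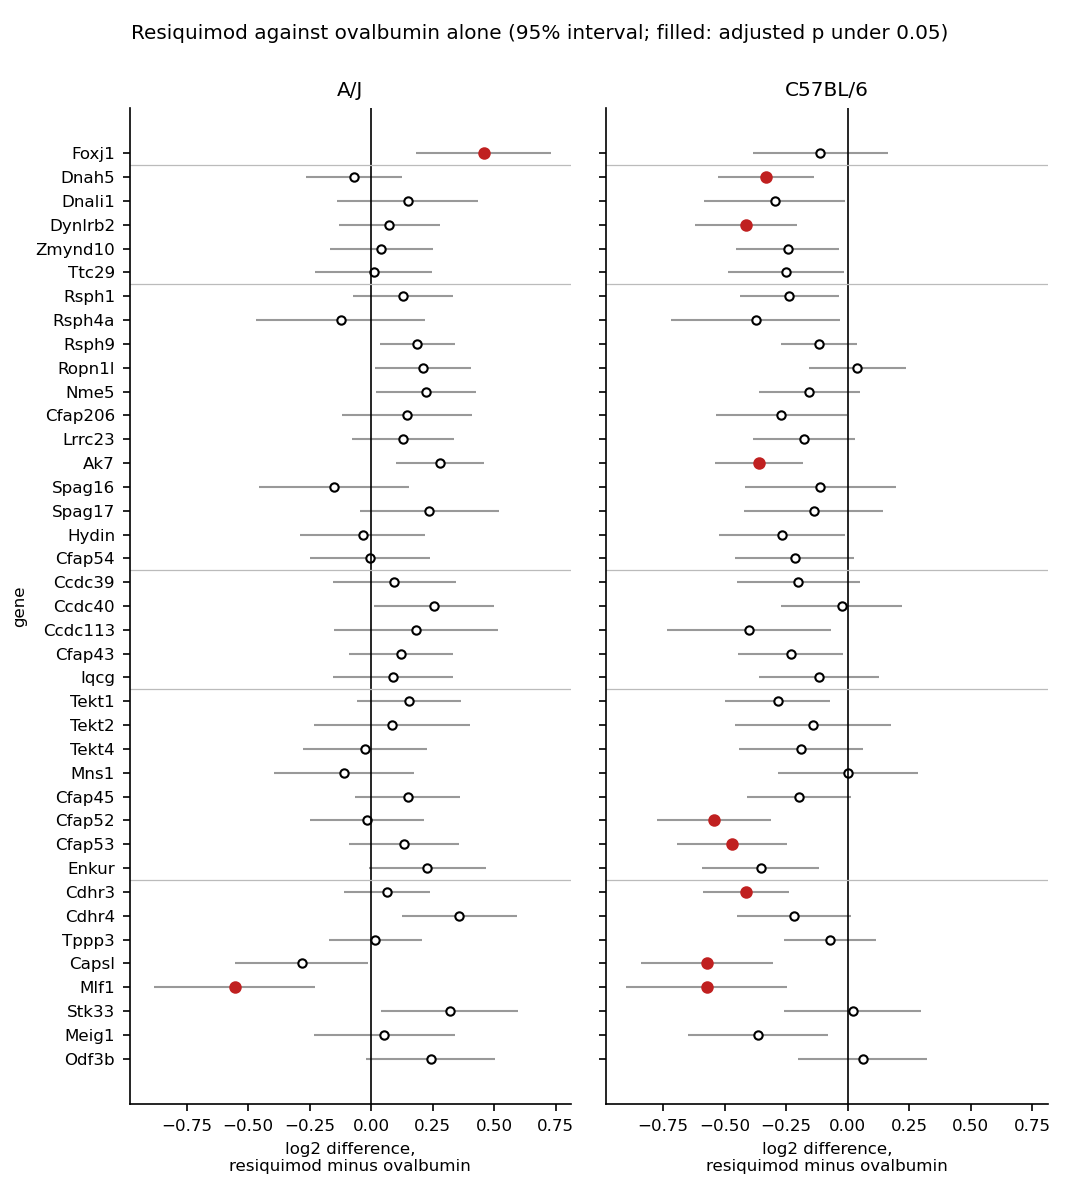
Log2 difference of resiquimod plus ovalbumin from ovalbumin alone for 39 motile cilia genes in A/J (left) and C57BL/6 (right), with 95% limma intervals; filled points passed an adjusted p of 0.05. In C57BL/6 35 points lie left of 0 and 8 are filled; in A/J 29 lie right of 0 and only Foxj1 and Mlf1 are filled.

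Promoters were read because Foxj1 and RFX factors are known to act at cilia gene promoters. Sequences are shown for 4 of these 8 genes, each with a motif searched for in its promoter. Dnah5 held one too and its sequence is not shown, and Cfap53 had no promoter entry. RefSeq promoters (assembly GRCm38.p6, 250 bases before to 50 after each start, 300 in all) were matched for 33 of the 41 genes, with 38 promoters. Capitals mark the core of an RFX site (GTTGCC) or a forkhead core (TGTTTA), each on either strand.
Cdhr3, chr12:33092826-33093125, minus strand: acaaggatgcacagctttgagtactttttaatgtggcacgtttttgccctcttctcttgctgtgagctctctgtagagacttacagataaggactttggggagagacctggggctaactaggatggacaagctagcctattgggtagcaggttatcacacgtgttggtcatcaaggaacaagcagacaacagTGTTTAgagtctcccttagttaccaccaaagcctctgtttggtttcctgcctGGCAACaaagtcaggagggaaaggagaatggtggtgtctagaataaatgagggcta
Mlf1, chr3:67373847-67374146, plus strand: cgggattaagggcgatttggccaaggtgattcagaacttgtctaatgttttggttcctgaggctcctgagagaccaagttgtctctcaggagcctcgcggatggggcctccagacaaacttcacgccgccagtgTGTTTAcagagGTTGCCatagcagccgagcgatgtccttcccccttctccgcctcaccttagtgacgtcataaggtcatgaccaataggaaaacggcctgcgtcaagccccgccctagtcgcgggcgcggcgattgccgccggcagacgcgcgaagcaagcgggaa
Dynlrb2, chr8:116504765-116505064, plus strand: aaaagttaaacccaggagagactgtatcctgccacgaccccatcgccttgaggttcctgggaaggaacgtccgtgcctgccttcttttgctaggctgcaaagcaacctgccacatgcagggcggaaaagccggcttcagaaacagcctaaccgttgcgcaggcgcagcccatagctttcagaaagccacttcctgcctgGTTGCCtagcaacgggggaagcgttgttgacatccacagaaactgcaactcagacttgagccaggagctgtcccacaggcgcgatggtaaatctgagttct
Ak7, chr12:105705732-105706031, plus strand: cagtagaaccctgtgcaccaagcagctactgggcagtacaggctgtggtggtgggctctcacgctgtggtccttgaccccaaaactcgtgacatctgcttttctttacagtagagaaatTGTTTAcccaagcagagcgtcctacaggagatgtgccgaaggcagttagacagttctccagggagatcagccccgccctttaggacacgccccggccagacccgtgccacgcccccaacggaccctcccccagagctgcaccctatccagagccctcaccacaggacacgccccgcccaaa
Cdhr3 and Mlf1 held both motifs, Dynlrb2 the RFX core and Ak7 the forkhead core. Over all 38 cilia gene promoters the RFX core was in 19 (50%), compared with 12.5% of 32851 promoters of the same length. The forkhead core was in 11 (28.9%), compared with 13.4%. A paired RFX site, written as GTTNCC and GGNAAC with 0 to 3 bases between, was in 0 of 38 and in 0.8% of all promoters. That pattern is strict: the Dynlrb2 promoter has AGCAAC just after its RFX core and was not counted. Looser paired forms were not searched for, so their number in these promoters is not known. The promoters of Cfap52 and Capsl, which also fell, held none of the 3 motifs, and Dnah5 held the forkhead core. A match here is a run of letters and says nothing on whether a factor was bound.

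Set against PBS, the same C57BL/6 resiquimod lungs had 5 cilia genes lower and 0 higher, where 7.16% of all named genes were lower and 9.61% higher. The median was -0.16, with 32 of 39 genes below 0. This comparison shares its resiquimod arrays with the one above. The 5 were Mlf1 at -0.71 ± 0.15 (limma adjusted p = 0.0054), Cfap52 at -0.38, Cdhr3 at -0.36, Dynlrb2 at -0.35 and Ak7 at -0.28 (SE 0.08 to 0.11 for the last 4, limma adjusted p 0.00788 to 0.0401). The second Cfap52 probe set differed by -0.01 and was not called. Capsl, at -0.37, and Rsph4a, at -0.50, did not pass. The count was 2 without resiquimod replicate 2, 3 without any 1 of the other arrays of these 2 groups, and 0 without the 8 arrays with squamous transcripts, 2 of which are PBS lungs of this strain.

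**Figure D3:**
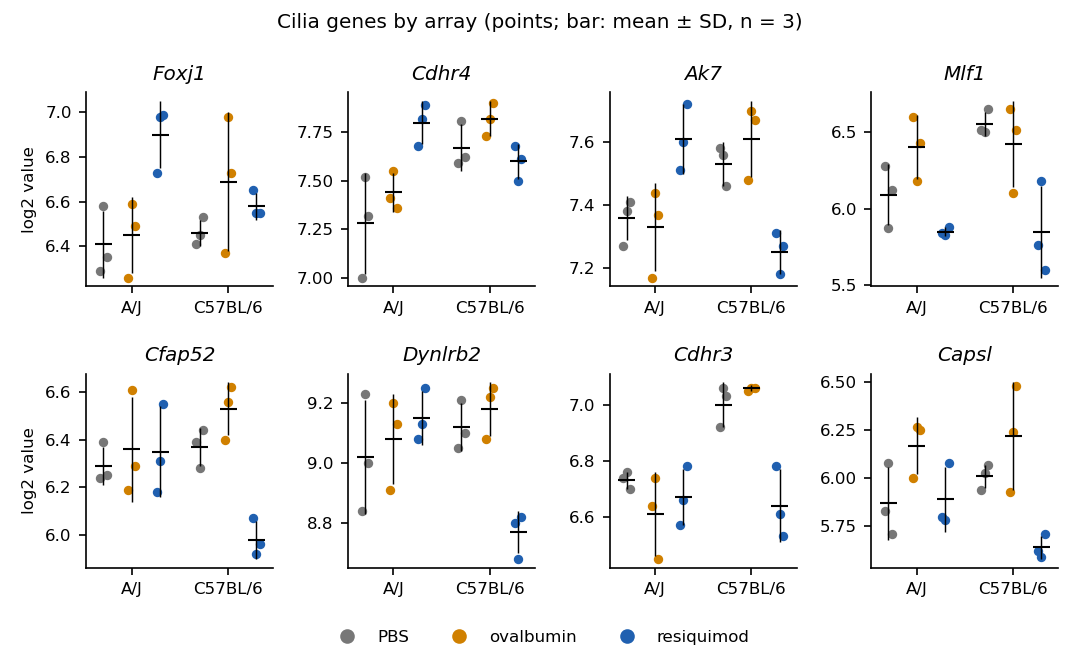
Log2 values of 8 cilia genes on each array by strain and treatment; points are arrays, horizontal bars means and vertical bars ± SD (n = 3). The C57BL/6 resiquimod points of Ak7, Cfap52, Dynlrb2, Cdhr3 and Capsl lie below the other C57BL/6 points, and the A/J resiquimod points of Foxj1 and Cdhr4 lie above the other A/J points.

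In A/J lungs, Foxj1 was higher with resiquimod than in both other groups, and few other cilia genes were called. Against ovalbumin 1 gene rose (Foxj1) and 1 fell (Mlf1), where 4.38% of all named genes were higher and 5.39% lower. Against PBS 3 rose and 0 fell, where 5.86% were higher and 5.27% lower. The median differences were 0.12 against ovalbumin, with 29 of 39 genes above 0, and 0.09 against PBS, with 33 above 0. The 2 comparisons share the resiquimod arrays. As shares of the 39 genes the calls were 2.56% each way against ovalbumin and 7.69% higher against PBS, near the shares of all genes.

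Foxj1 read 6.29, 6.58 and 6.35 with PBS, 6.26, 6.59 and 6.49 after ovalbumin and 6.73, 6.98 and 6.99 after resiquimod in A/J. The A/J resiquimod lungs lay above all other A/J lungs. In C57BL/6 it read 6.41, 6.45 and 6.53 with PBS, 6.37, 6.98 and 6.73 with ovalbumin, and 6.65, 6.55 and 6.55 with resiquimod, where the ovalbumin lungs spanned the range of both other groups. The A/J difference was 0.46 ± 0.13 from ovalbumin (limma adjusted p = 0.0418) and 0.50 ± 0.13 from PBS (limma adjusted p = 0.0239), a level 1.41 times that of the PBS lungs. In C57BL/6 the corresponding values were -0.11 and 0.12, and neither passed.

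Cdhr4, a cadherin-related protein, read 7.0, 7.52 and 7.32 with PBS, 7.41, 7.55 and 7.36 with ovalbumin, and 7.68, 7.82 and 7.89 with resiquimod in A/J, and 7.59, 7.81 and 7.62 with PBS, 7.73, 7.82 and 7.90 with ovalbumin, and 7.68, 7.50 and 7.61 with resiquimod in C57BL/6. The A/J resiquimod lungs were above the other A/J lungs and within the C57BL/6 range. Replicate 2 of the A/J PBS and of the A/J ovalbumin group also lay within that range. The difference from PBS was 0.52 ± 0.11 (limma adjusted p = 0.00635), and a second Cdhr4 probe set rose by 0.66 ± 0.12 (limma adjusted p = 0.00254). Against ovalbumin that second set was called higher too, at 0.43 ± 0.12 (limma adjusted p = 0.0470), and the brighter set was not called. Rsph9, a radial spoke protein, differed from PBS by 0.26 ± 0.07 (limma adjusted p = 0.0354). Ak7 read 7.27, 7.38 and 7.41 with PBS, 7.17, 7.44 and 7.37 with ovalbumin, and 7.51, 7.60 and 7.72 with resiquimod in the A/J groups, and its difference of 0.28 from ovalbumin missed the threshold (limma adjusted p = 0.0578). Of the 3 calls against PBS 1 remained without PBS replicate 1 or 3, or without resiquimod replicate 2 or 3. Against ovalbumin 0 remained without A/J PBS replicate 3, A/J ovalbumin replicate 1 or 3, A/J resiquimod replicate 2 or 3, or C57BL/6 PBS replicate 1, and 1 without C57BL/6 PBS replicate 2 or 3, C57BL/6 ovalbumin replicate 3 or any 1 C57BL/6 resiquimod array. The Foxj1 call against ovalbumin was lost on leaving out 12 of the 18 arrays 1 at a time, with a limma adjusted p of 0.0131 to 0.171 over the 18. Without the arrays with squamous transcripts no gene was called in either comparison, and the median against ovalbumin, where 1 A/J ovalbumin lung was left, was -0.01.

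For 37 of 39 cilia genes the estimated effect of resiquimod was higher in A/J than in C57BL/6, and for 1 of them, Ak7, the strains differed past the test. The A/J effect minus the C57BL/6 effect, each against ovalbumin, had a median of 0.31. Over all named genes it was above 0 for 9352 of 18193, with a median of 0.01. Ak7 was called upward and 0 genes downward, where 0.357% of all named genes were higher and 0.879% lower. The Ak7 effects of 0.28 in A/J and -0.36 in C57BL/6 differed by 0.64 ± 0.12 (95% interval 0.39 to 0.90, limma adjusted p = 0.0213). In both strains the resiquimod and ovalbumin lungs did not overlap for Ak7, in opposite directions.

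By role the median of this strain difference was 0.29 for the 5 dynein genes, 0.31 for the 12 spoke and central pair genes, 0.30 for the 5 ruler and link genes, 0.39 for the 8 doublet genes and 0.29 for the 8 remaining ciliated cell genes. Among other genes with large differences between the strain effects were Cfap53 at 0.61 (limma adjusted p = 0.0703) and Cdhr3 at 0.48 (limma adjusted p = 0.0696). Cdhr4 was at 0.58 (limma adjusted p = 0.0981) and Foxj1 at 0.57 (limma adjusted p = 0.168). These are not all of the large ones, since the highest of the ruler and link genes was 0.59. None of these passed; they were singled out after their values were seen. At an unadjusted p under 0.05 the count was 19 of 39, against 15.3% of all named genes. Mlf1, at 0.02, had a 95% interval of -0.44 to 0.48. The Ak7 call was lost without A/J ovalbumin replicate 1, A/J resiquimod replicate 3, C57BL/6 ovalbumin replicate 2 or 3, or C57BL/6 resiquimod replicate 3 (limma adjusted p up to 0.062), and without the squamous arrays (limma adjusted p = 0.303, difference 0.61). The count of genes called was 2 without A/J PBS replicate 1 or A/J resiquimod replicate 1, and 4 without A/J ovalbumin replicate 2. For the ovalbumin effect, 0 of 39 genes differed between the strains, where 0.0440% of all named genes were higher and 0.0165% lower. At an unadjusted p under 0.05 limma gave 1 (2.56%), against 5.22% of all named genes. The median strain difference in the ovalbumin effect was -0.08.

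Between the strains, 10 cilia genes differed over the treatments, and Stk33 differed most. Over the 3 treatments 7 cilia genes were called lower in A/J than in C57BL/6 and 3 higher, where 11.5% of all named genes were lower and 11.5% higher. The median was 0.00, with 20 above 0 and 19 below. The 7 include Cfap43, whose probe sets disagree in direction. Without it 6 of 38 were lower and 3 higher, and with its other probe set 6 of 39 were lower and 4 higher. A base difference between strains under a probe cannot be told apart here from a difference in transcript level.

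Stk33, a serine/threonine kinase needed for the sperm tail, read 3.49, 3.75 and 3.63 with PBS, 3.48, 3.56 and 3.68 with ovalbumin, and 3.71, 3.93 and 4.04 with resiquimod in A/J. In C57BL/6 it read 4.76, 4.74 and 4.29 with PBS, 4.63, 4.48 and 4.89 with ovalbumin, and 4.75, 4.54 and 4.77 with resiquimod. Every A/J lung was below every C57BL/6 lung, by -0.96 ± 0.08 over the treatments (limma adjusted p = 4.94e-08), and no array left out removed the call. Cfap206, a radial spoke adaptor, read 5.80, 6.21 and 6.17 with PBS, 5.90, 6.14 and 6.05 with ovalbumin, and 6.18, 6.16 and 6.19 with resiquimod in A/J and 6.77, 6.53 and 6.73 with PBS, 6.60, 6.65 and 7.03 with ovalbumin, and 6.66, 6.40 and 6.41 with resiquimod in C57BL/6. Again the strains did not overlap, at -0.55 ± 0.07 (limma adjusted p = 1.82e-05).

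Tekt4 and Meig1, which is needed to build the sperm tail, were higher in A/J. Tekt4 read 6.09, 6.29 and 6.25 with PBS, 6.12, 6.48 and 6.30 with ovalbumin, and 6.16, 6.26 and 6.40 with resiquimod in the A/J groups and 5.90, 5.79 and 5.73 with PBS, 5.78, 6.03 and 5.98 with ovalbumin, and 5.71, 5.51 and 6.00 with resiquimod in the C57BL/6 groups, with every A/J lung above every C57BL/6 lung. The difference was 0.43 ± 0.07 (limma adjusted p = 0.000136). Meig1 read 5.66, 6.14 and 5.82 with PBS, 5.82, 6.16 and 5.94 with ovalbumin, and 5.89, 6.16 and 6.03 with resiquimod in A/J and 5.57, 5.58 and 5.69 with PBS, 5.65, 5.88 and 5.80 with ovalbumin, and 5.17, 5.37 and 5.69 with resiquimod in C57BL/6. Its strains separated only in the resiquimod lungs, and the difference over the treatments was 0.36 ± 0.08 (limma adjusted p = 0.00255). Mns1, at 0.39 ± 0.08, was the other gene called higher.

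Cfap43 gave opposite answers by probe set. The brighter set read 6.07, 6.39 and 6.33 with PBS, 6.18, 6.52 and 6.31 with ovalbumin, and 6.31, 6.53 and 6.54 with resiquimod in A/J and 6.55, 6.66 and 6.74 with PBS, 6.75, 6.91 and 6.90 with ovalbumin, and 6.67, 6.61 and 6.58 with resiquimod in C57BL/6, lower in every A/J lung by -0.35 ± 0.06. Another set (mean 5.57) was higher in A/J by 1.17 ± 0.09 (limma adjusted p = 2.96e-08), and the remaining one (mean 3.85) was called in no comparison. No direction is therefore given for Cfap43 between the strains. A second Cfap54 probe set (mean 3.12) was also called higher in A/J, by 0.27 ± 0.04, where the brighter one differed by -0.19 and was not called. The other genes called lower in A/J were Cfap53 at -0.27, Cdhr3 at -0.23, Hydin, a central pair protein, at -0.21, and Cdhr4 at -0.19. The Cdhr4 call (limma adjusted p = 0.0429) was lost on leaving out 12 of the 18 arrays 1 at a time, and its second probe set differed by -0.06 (limma adjusted p = 0.631). A second Hydin probe set (mean 3.28) differed by 0.05 and was not called.

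**Figure D4:**
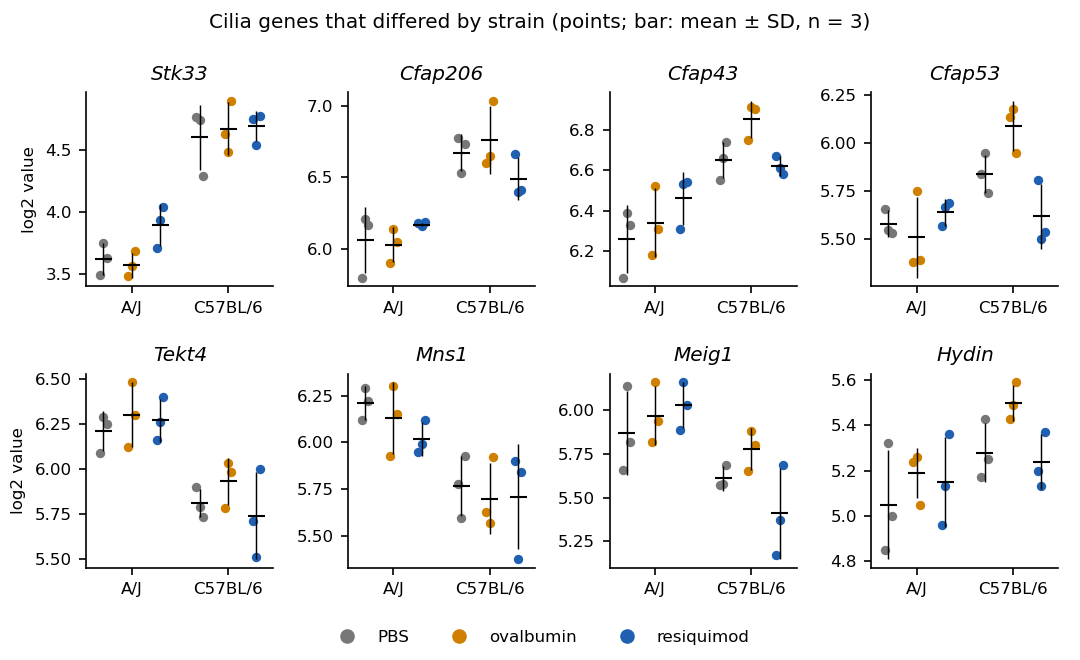
Log2 values of 8 cilia genes called between the strains, on each array by strain and treatment; points are arrays, horizontal bars means and vertical bars ± SD (n = 3). Stk33, Cfap206 and Cfap43 lie lower in every A/J lung, and Tekt4 lies higher; a second Cfap43 probe set, not drawn, had the opposite direction.

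The median strain difference of the list was below 0 with PBS and ovalbumin and above 0 with resiquimod. These comparisons use separate arrays. Leaving out 1 array at a time, the medians ran from -0.14 to 0.00 with PBS, -0.21 to -0.07 after ovalbumin and 0.15 to 0.28 after resiquimod. The genes moved together within arrays, and the pooled SD between arrays of their median deviation from group means was 0.096. The PBS median was smaller in size than this spread. With PBS, 4 genes were called lower in A/J and 1 higher, against 4.56% and 4.46% of all named genes, and 27 of 39 estimates were below 0 with a median of -0.08. Without Cfap43 3 were lower and 1 higher, and with its other probe set 3 and 2. After ovalbumin, 7 were lower and 0 higher, against 4.98% and 4.29%, and 30 were below 0 with a median of -0.13. Without Cfap43 6 were lower and 0 higher, and with its other probe set 6 and 1. After resiquimod, 1 was lower (Stk33) and 9 were higher, against 8.92% and 7.54%, and 33 were above 0 with a median of 0.22. With the other Cfap43 probe set 10 were higher. Those 9, from the largest, were Meig1 at 0.62, Tekt4 at 0.53, Dynlrb2 at 0.39, Cfap52 at 0.36, Zmynd10 at 0.36, Ak7 at 0.36, Enkur, Rsph9 and Nme5, the last at 0.30. A second Cfap52 probe set differed by 0.08 after resiquimod and was not called. A second Cdhr4 probe set, outside this count, was called higher, at 0.39 ± 0.12 (limma adjusted p = 0.0473). Ak7 was lower in A/J after ovalbumin, at -0.28 ± 0.08 (limma adjusted p = 0.0469), and higher after resiquimod, at 0.36 ± 0.08 (limma adjusted p = 0.00794). The Ak7 call after ovalbumin was lost on leaving out 14 of the 18 arrays 1 at a time (limma adjusted p up to 0.208), and the one after resiquimod on none. Cdhr3 differed by -0.45 after ovalbumin and Cfap53 by -0.58, and by 0.03 and 0.03 after resiquimod. The 10 calls after resiquimod were 6 without A/J resiquimod replicate 3, 5 without C57BL/6 resiquimod replicate 2 and 4 without the squamous arrays. The 5 with PBS were 3 without A/J PBS replicate 1 or 3 or C57BL/6 PBS replicate 3, and 2 without C57BL/6 PBS replicate 2. Leaving out the squamous arrays left 1 lung in the C57BL/6 PBS group and 1 in the A/J ovalbumin group. The median strain difference was then -0.05 with PBS and -0.06 after ovalbumin.

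Over the 6 treatment and 4 strain comparisons, 21 of the 39 cilia genes were called at least once and 18 in none, where 39.9% of all named genes were called at least once. The 18 were the dynein genes Dnali1 and Ttc29, the spoke and central pair genes Rsph1, Rsph4a, Ropn1l, Lrrc23, Spag16, Spag17 and Cfap54, the ruler and link genes Ccdc39, Ccdc40, Ccdc113 and Iqcg, the doublet genes Tekt1, Tekt2 and Cfap45, and Tppp3 and Odf3b. Their differences with resiquimod against ovalbumin ran from -0.40 (Ccdc113) to 0.06 (Odf3b) in C57BL/6 and from -0.15 (Spag16) to 0.26 (Ccdc40) in A/J.

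Of 192 other cilium genes 160 were measured. With ovalbumin against PBS 4 were higher and 0 lower in A/J (2.5% higher, against 3.20% of all named genes). They were Nme7 at 0.58, Stil at 0.50, the dynein heavy chain Dnah8 at 0.38 and the dynein docking gene Odad3 at 0.36. In C57BL/6 0 of the 160 were called. At an unadjusted limma p under 0.05 there were 12, or 7.5%, against 11.9% of all named genes.

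In C57BL/6 lungs after resiquimod 10 were lower and 1 higher than after ovalbumin, with 122 of 160 estimates below 0 and a median of -0.10. These calls were 6.25% lower and 0.625% higher, against 4.60% and 5.80% of all named genes. The axonemal ones were the dynein chains Dnai3 at -0.61 and Dnah9 at -0.35, the central pair gene Spef1 at -0.56, the nexin link gene Drc1 at -0.53, Cfap251 at -0.46, and the doublet genes Pierce1 at -0.39 and Cfap126 at -0.36. Of 34 intraflagellar transport genes, which serve all cilia, Ift122 at -0.35, Ift88 at -0.28 and Ift80 at -0.27 fell. The 1 that rose, Stil at 0.61, is a centriole duplication gene also used by dividing cells. The 20 regulators of multiciliation had a median of -0.00, and the 24 BBSome and transition zone genes one of -0.07 with 0 called.

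Against PBS, 13 of the 160 were lower and 3 higher in the same C57BL/6 resiquimod lungs. That is 8.12% lower, near the 7.16% of all named genes, and 1.88% higher, against 9.61%. The lower ones included Dnai3 at -0.71, Spef1 at -0.65, the dynein gene Dnai4 at -0.46, Ift122 at -0.42, Ift70b at -0.41 and Foxn4, a multiciliation factor, at -0.34. The 3 higher ones were Plk4, the kinase that starts centriole duplication, at 1.19, Stil at 0.98 and Tfdp1, a partner of E2F factors in dividing cells, at 0.39.

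In A/J lungs after resiquimod, 3 of the 160 were higher than after ovalbumin and 7 lower, or 1.88% and 4.38%, below the 4.38% and 5.39% of all named genes. The higher ones were Stk36 at 0.57, a kinase listed with the spoke, central pair and nexin link genes, Dnah6 at 0.42 and Spaca9 at 0.42. Nme7 at -0.55, Dnah8 at -0.40 and Tfdp1 at -0.39 led the lower ones. Nme7 and Dnah8 are also among the 4 called higher with ovalbumin against PBS, a comparison that shares the ovalbumin lungs. With the same resiquimod lungs, 7 of the 160 were higher than with PBS and 2 lower, or 4.38% and 1.25%, against 5.86% and 5.27% of all named genes. Among the higher ones were Cfap69 at 0.60, the dynein assembly gene Pih1d2 at 0.52, Spaca9 at 0.44 and the dynein heavy chain Dnah6 at 0.37. Spef1 was lower, at -0.41, and so was the transition zone gene Cc2d2a at -0.36. The strain difference in the resiquimod effect was above 0 for 124 of the 160, with a median of 0.15, and 1 was called, Stil at -0.66. Over the treatments 21 were lower in A/J and 16 higher, or 13.1% and 10%, near the 11.5% of all named genes each way. The largest differences were Drc3 at -0.77, Ift27 at -0.62, Cfap61 at 0.81 and Stk36 at 0.69.

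Within groups the cilia genes rose and fell together from mouse to mouse. After group means were subtracted, the correlation of a gene with the mean of the other 38 had a median of 0.715 over the 18 arrays, from 0.933 for Rsph4a to -0.622 for Mlf1; Ropn1l had 0.003. On the A/J ovalbumin replicate 2 array 36 of 39 genes were above their group mean, and on replicate 1 of that group 36 were below. In the C57BL/6 PBS group, by contrast, 18 to 20 were above it on each array. Genes outside the list that followed the mean of the cilia genes most closely were Wfdc2 (0.947), Ccdc153 (0.939), Fam166c (0.936), Pifo (0.922) and Clic6 (0.903), and among the nearest 20 only 1700007K13Rik (0.873), an older name of Pierce1, was in a list of other cilium genes. The remaining ones, from 0.890 to 0.851, were Lrrc26, Stard8, Alas1, Epas1, Lpar3, Trpm7, Nipal3, Slc23a2, Plscr2, Lratd2, Ttll7, Lrp6, Ano6 and Usp43. The lists of other cilium genes are not complete, so a gene outside them can still be a cilium gene. The median over all named genes outside the list was 0.052. These values share arrays and are given as a description.

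The cilia genes were lower on arrays with squamous transcripts in most groups. In 5 of the 6 groups, 32 to 36 of 39 genes were lower on the arrays with squamous transcripts than on those without, by a median of -0.12 to -0.21. In the C57BL/6 PBS group, where 2 of 3 arrays had them, 19 were lower and the median was 0.02. Foxj1 differed by -0.49 between such arrays in the C57BL/6 ovalbumin group and by -0.06 in the C57BL/6 resiquimod group. Each of these contrasts has 1 array on one side. Of the marker lists, the squamous genes had a median correlation of -0.739 with the cilia genes and skeletal muscle genes -0.767, while club cell genes had 0.633 and alveolar type 2 genes 0.576. With the squamous mean as a covariate the C57BL/6 count against ovalbumin was 8 and its median -0.24. The part of these tissues in the results was not tested beyond these values.

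**Figure D5:**
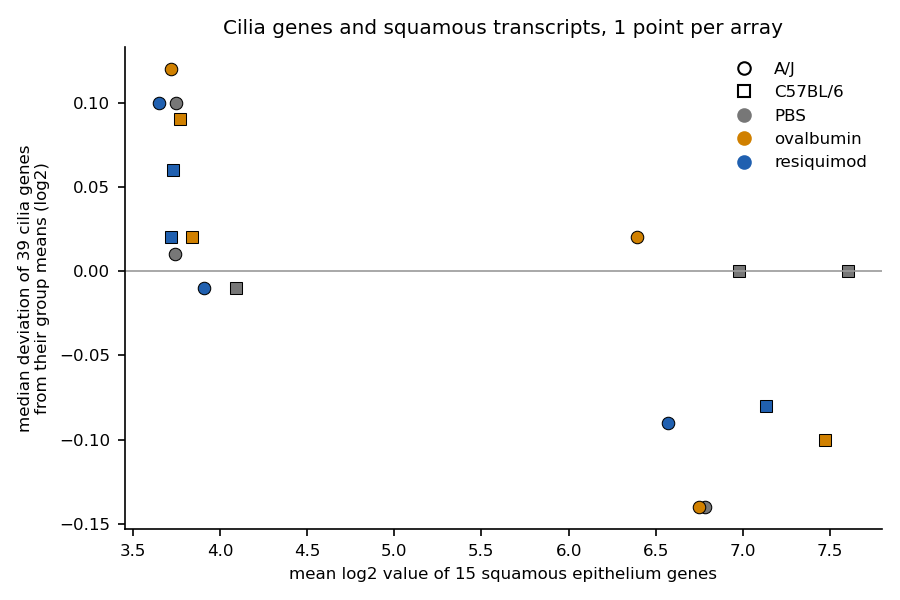
Median deviation of 39 cilia genes from their group means against the mean log2 value of 15 squamous epithelium genes, 1 point per array; circles are A/J, squares C57BL/6, and colours treatments. The 10 arrays without squamous transcripts lie between -0.01 and 0.12, and the 8 with them between -0.14 and 0.02.

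Markers of other cell types, in the airways and outside them, also differed in C57BL/6. After resiquimod against ovalbumin, 5 of 12 club cell genes were lower and 0 higher with a median of -0.21, and the mean of the list was 10.60 to 10.75 after ovalbumin and 10.26 to 10.36 after resiquimod. In A/J 3 of the 12 were lower, where 5.39% of all named genes were, and the median of the 12 was 0.05. The strain difference in the resiquimod effect was above 0 for all 12 club cell genes, with a median of 0.29 and 0 called. At an unadjusted limma p under 0.05 there were 6 of the 12, against 15.3% of all named genes. In C57BL/6, goblet cell genes were lower for 9 of 12 (median -1.17) and smooth muscle genes for 7 of 8 (-0.75). Alveolar type 1 genes were lower for 3 of 10 (-0.21) and alveolar type 2 genes for 2 of 10 (-0.12). Red cell genes were lower for 2 of 3 (-1.17), and airway cartilage genes and submucosal gland genes for 1 each (-0.13 and 0.05). Neutrophil genes were higher for 6 of 7 (0.94) and endothelial genes for 3 of 9 (0.27). Over all named genes 4.60% were lower and 5.80% higher in this comparison. No gene was called among the squamous epithelium (median -0.12), basal cell (-0.18), skeletal muscle (-0.11), neuroendocrine (-0.06) and mesothelial (-0.18) lists. Goblet and smooth muscle levels were lower after resiquimod in A/J too. There the goblet mean was 8.01 to 8.09 after ovalbumin and 6.23 to 6.69 after resiquimod. The A/J smooth muscle mean was 9.08 to 9.16 and 8.44 to 8.59, and the alveolar type 2 mean 11.98 to 12.03 and 11.98 to 12.06. The part of these cells in the lower cilia gene levels was not tested.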

How the data were processed

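Whole lung RNA of 18 mice was measured on Affymetrix mouse expression arrays. The deposited table holds log2 values that the authors normalised with RMA (affy), per the submitters' processing notes, which give no versions. It has 45101 probe sets, of which 64 controls were left out. Gene names came from the platform annotation: 34945 probe sets named 1 gene, 932 several and 9160 none. Each gene was read from its single-gene probe set with the highest mean. A limma model (version 3.58.1, run under R 4.3.3) gave the means of all 6 groups (lmFit, eBayes, 12 residual and 4.3 prior degrees of freedom), with 12 comparisons and Benjamini-Hochberg adjustment over 45037 probe sets. The fit was tested on simulated data. Array medians were 4.77 to 4.80, and the number of arrays limits the precision. The members and lists were chosen with earlier results of these data known. The rule named called members, up to 6 per direction and comparison by size, the 2 largest either way where none was called, up to 3 called genes per other cilium list, and the 20 most-like genes, and gave every array's value for Foxj1 and up to 12 called members. Ak7 and Dnah5 values and further called genes were added after their values were seen. Promoters came from RefSeq (GRCm38.p6). Alternatives changed the arrays fitted, the variance model, array weights, centring, the probe set rule, the adjustment, a replicate block and the squamous arrays. Replicate numbers were not treated as pairing mice.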

Additional observations from a re-analysis of the deposited data

Results flagged for a closer look

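In the main fit, Ak7 was the 1 cilia gene whose response to resiquimod differed between the strains by a test of the difference itself. Its level with resiquimod against ovalbumin differed by 0.28 in A/J and by -0.36 in C57BL/6, so that the difference was 0.64 ± 0.12 (SE, limma adjusted p = 0.0213). The A/J estimate alone did not pass (limma adjusted p = 0.0578). The call on the strain difference was lost on leaving out 5 of the 18 arrays 1 at a time. It was also lost with only the arrays of the comparison.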

How the results depend on the processing

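The counts of called cilia genes moved more than their medians. In A/J, resiquimod against ovalbumin gave 1 with only the arrays of the comparison, 0 with array weights, and 4 each with a trended robust variance, the mean of all probe sets, adjustment over 1 probe set per gene or the squamous mean as a covariate. Without the arrays with squamous transcripts it gave 0 and a median of -0.01, and resiquimod against PBS gave 0 (1 with only the arrays of the comparison). In C57BL/6, resiquimod against ovalbumin gave 5 with only those arrays and 1 without the squamous arrays, and against PBS 9 with the covariate and 0 without the squamous arrays. Between strains, PBS gave 8 with array weights and 9 with the covariate, and resiquimod gave 4 without the squamous arrays. Leaving those arrays out left 1 lung in the C57BL/6 PBS group and 1 in the A/J ovalbumin group. The strain difference in the resiquimod effect gave 0 with only the arrays of the comparison, 4 with the trended variance, 3 with the mean of probe sets, 3 with 1 probe set per gene, 2 with the covariate and 0 without the squamous arrays. The median strain difference in the ovalbumin effect was 0.02 with the covariate. With the mean of all probe sets Cfap43 reversed, to 0.24 in PBS, 0.15 in ovalbumin and 0.28 over the treatments, since its probe sets disagree. Leaving Cfap43 out, or reading it from its other probe set, was chosen after seeing the data. Neither moved a strain count, taken over both directions together, by over 1.5 times. The cause of the other moves was not tested, except that leaving out arrays leaves fewer mice.

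Leaving out 1 array at a time, the counts ranged from 0 to 3 (A/J) and 3 to 9 (C57BL/6) for resiquimod against ovalbumin, from 1 to 4 and 2 to 7 against PBS, from 2 to 7, 5 to 8, 5 to 11 and 8 to 12 for the strains in PBS, ovalbumin, resiquimod and over the treatments, and from 0 to 4 for the strain difference in the resiquimod effect. With the replicate number as a block, resiquimod against ovalbumin gave 3 in A/J and 9 in C57BL/6. Same-numbered arrays of different groups had correlations of -0.628 to 0.609, with 27 of 45 over 0.1. The 90 other pairs ranged from -0.598 to 0.683, and their number over 0.1 was not counted. These values cannot decide whether the numbers pair mice. The labels name no pairing, and none was used in the main fit. The 3 mice per group and signals near background, as for Stk33, limit what could be detected.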
